A study of Mus musculus with 15 samples.

Results

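Cells depleted of Opa1 by siRNA and given wild-type OPA1 back were compared with cells in which Opa1 had not been targeted. The comparison takes 6 of the 15 RNA sequencing libraries of the series, chosen by their group labels. In the 3 rescue libraries (siOPA1/OPA1), N2a cells received siRNA against OPA1 together with a plasmid for wild-type OPA1. The 3 knockdown libraries (siOPA1/Control), set beside them throughout, had the same siRNA with a control plasmid. The 3 control libraries (siControl/Control) had control siRNA and control plasmid, and carry the genotype label WT/WT. N2a is an established mouse neuroblastoma line. All groups were sampled on day 3, and in all of them siRNA at 50 nM and plasmid were delivered in the same transfection. The other 6 libraries had the siRNA with OPA1 carrying V560F or V465F, and are used only to place some of the genes described here. The question was which of the changes remain once wild-type OPA1 is expressed again. The knockdown libraries differ from the controls by the siRNA and from the rescue libraries by the plasmid. None of the 5 groups joined control siRNA to an OPA1 plasmid, so the plasmid without the siRNA was not measured. The labels do not say whether replicates were separate cultures, so the spread behind each p-value is that between these libraries and may be technical.

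OPA1, a GTPase related to dynamins, sits in the inner membrane of mitochondria. It fuses inner membranes and holds cristae junctions narrow, and the proteases OMA1 and YME1L cut it into short forms. In mammalian cells, stressed mitochondria can signal through OMA1, DELE1 and the kinase HRI (Eif2ak1) to phosphorylate eIF2alpha, which raises translation of ATF4 and starts the integrated stress response. Misfolded proteins in the endoplasmic reticulum start another response, which works through ATF6, IRE1 with XBP1, and PERK, and raises chaperones of that organelle. Lysosomal genes are driven in part by the transcription factors TFEB and TFE3.

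With wild-type OPA1 put back, Opa1 itself was still lower than in control cells, chaperone genes of the endoplasmic reticulum and lysosomal enzyme genes were higher, and several voltage-gated channel genes were lower. No gene passed the direct test of rescue against knockdown. Trends with transcript length and with expression level ran alongside these differences, and list medians with each of them removed are given beside the gene groups.

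Deposited gene counts totalled 22186086 to 27809960 in the 6 libraries, and 13074 of 22507 genes passed the filter on low counts. Levels are given as CPM, counts scaled by library size with TMM factors. Fold changes are log2 values of rescue over control with their standard errors from an edgeR quasi-likelihood fit, n = 3 libraries in each group, and a gene was called at a Benjamini-Hochberg adjusted p under 0.05 over all tested genes. For the median gene the standard error was 0.105 on the log2 scale and a 95% interval of ± 0.217. A slope was computed for each library, of its log2 level over the mean of the 15 libraries against log10 transcript length. It was 0.16, 0.22 and -0.07 in the rescue libraries, with replicate 3 apart, 0.20 to 0.22 in the knockdown libraries and 0.32 to 0.51 in the control libraries. Genes with at least 1 count numbered 16737 to 16992 in the rescue, 16819 to 16911 in the knockdown and 17184 to 17532 in the control libraries. The part of these trends in the results was not tested. Gene lists are therefore also given after a correction for length and GC content, and after cyclic loess, a scaling that makes the difference between libraries level across expression. Markers of other cell types had low summed levels, and their part in the results was not tested. Of 11 microglia and macrophage markers none had enough counts to be tested, Ptprc was at 0 in all 9 libraries, and their summed level was 0.324 to 0.596 CPM in rescue and 0.34 to 0.89 CPM in control libraries. Of 9 fibroblast and mural cell markers, summing to 21.7 to 27.0 CPM in rescue and 20.4 to 25.7 CPM in control libraries, mostly from Pdgfrb, 4 were tested, Pdgfra rose, and Postn was at 0 in all 9 libraries. Of 11 astrocyte and oligodendrocyte markers, mostly Mbp, summing to 20.3 to 23.7 CPM in rescue and 21.8 to 23.9 CPM in control libraries, 2 were tested. Neuroblast identity markers summed to 3350 to 3760 CPM in rescue and 3407 to 3527 CPM in control libraries, led by Chgb. In such bulk RNA, fewer cells of a kind and less RNA per cell cannot be told apart.

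Opa1 (Entrez gene 74143), the gene targeted by the siRNA, had 29.5, 33.9 and 30.7 CPM in the rescue libraries, against 33.9, 38.1 and 38.5 CPM in the knockdown libraries and 90.1, 98.1 and 99.1 CPM in the control libraries. The rescue libraries lay below all control libraries and, by a narrow margin, below all knockdown libraries. The rescue mean was 32.7% of the control mean (log2 fold change -1.61 ± 0.0841, edgeR adjusted p = 4.26e-11), and a two-sided exact permutation test on the 3 and 3 libraries had p = 0.1, the lowest that this design can reach. Length and GC correction left a log2 fold change of -1.45, and cyclic loess one of -1.66. Against the knockdown libraries Opa1 was at -0.23 with a 95% interval of -0.41 to -0.05, and was not called (edgeR adjusted p = 0.522). The labels give neither the species nor the coding sequence of the plasmid insert, so these counts may leave out RNA from the plasmid and do not measure how much OPA1 was put back.

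**Figure D1:**
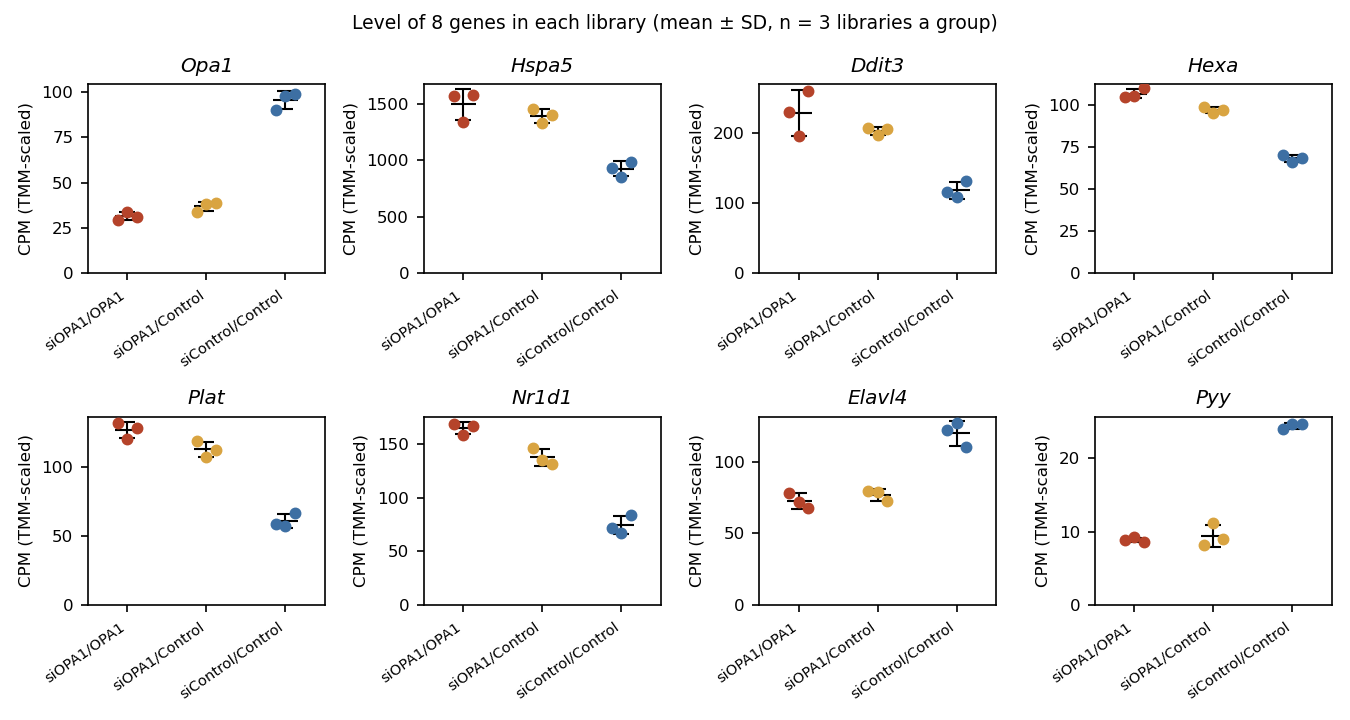
Level of 8 genes in CPM in each library, with siOPA1/OPA1 left, siOPA1/Control in the middle and siControl/Control right. Points are libraries, and the bar and whiskers are the mean and SD of 3. Opa1, Elavl4 and Pyy are lower, and Hspa5, Ddit3, Hexa, Plat and Nr1d1 higher, in all 3 siOPA1/OPA1 libraries than in any control library.

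Across all tested genes, 5409 of 13074 were called between rescue and control libraries (41.4%). Of these, 2887 were higher (22.1%) and 2522 lower (19.3%) in the rescue libraries. The knockdown libraries, against the same controls, gave 4689 calls (35.9%), 2599 higher (19.9%) and 2090 lower (16.0%). By libraries alone, 3659 genes (28.0%) had all 3 rescue values above all 3 control values and 3412 (26.1%) had them all below. Most changes were small, since 53 of the called genes rose and 444 fell by at least 2-fold. Direction went with expression level. In the lowest of 5 equal groups of genes by level, with a median of 0.894 CPM, 79 were called higher and 446 lower, and the median log2 fold change was -0.31. In the highest, with a median of 135 CPM, 1223 were called higher and 250 lower, with a median of 0.15. Cyclic loess left 2115 higher and 2106 lower, and the length and GC correction, on 12510 genes, 3917 higher (31.3%) and 1858 lower (14.9%). On the deposited FPKM scale (log2 of FPKM + 1) the split was 1364 higher and 4292 lower, where the median of all genes shifted by -0.10. The balance of directions thus moved with the scaling. Leaving out any 1 of the 6 libraries lowered the number of calls. It was lowest without rescue replicate 3 (3925) and control replicate 2 (4002), and 4654 to 5141 without any other. In several of the gene lists that follow, a count of 0 to 2 called members moved by 1 or 2 when a single library was left out.

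**Figure D2:**
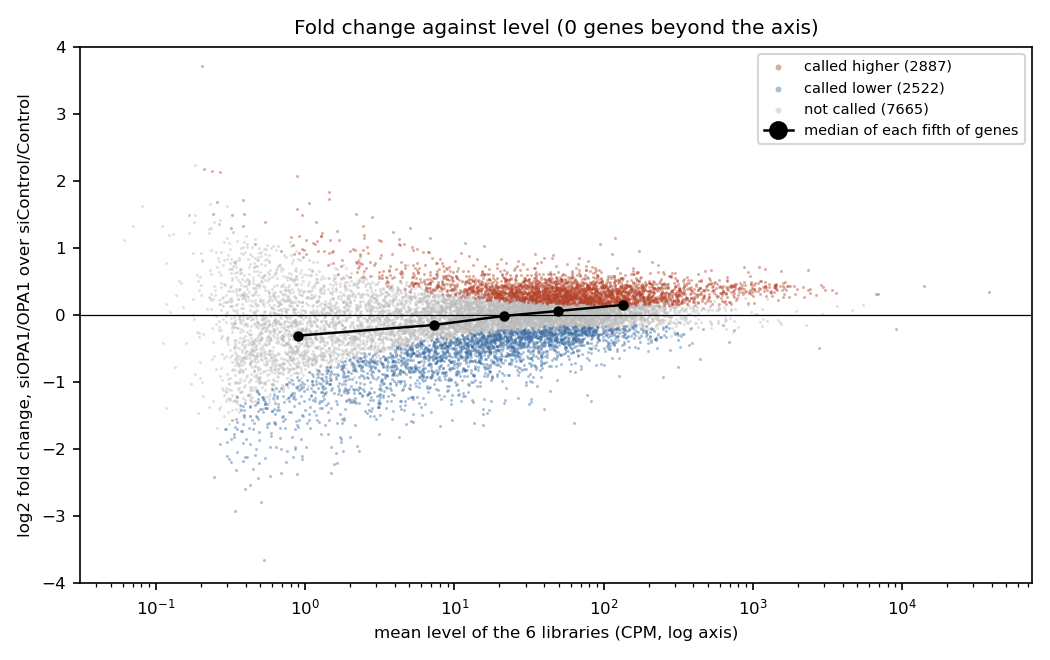
Log2 fold change of siOPA1/OPA1 over siControl/Control against the mean level of the 6 libraries in CPM (log axis), 1 point for each of the 13074 tested genes. Coloured points are the 2887 genes called higher and 2522 called lower, and the black line joins the medians of 5 equal groups of genes by level, which runs upward with level.

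The direct test asks whether the plasmid moved genes off their knockdown level. With rescue set against knockdown libraries, edgeR called 0 genes (0%), with a smallest adjusted p of 0.363 and 1157 genes at an unadjusted p under 0.05. DESeq2 called 7, edgeR without a filter on low counts 40, and limma on FPKM 0. The median 95% interval in this test, before adjustment, was ± 0.218, and single-gene shifts larger than that also went uncalled, as the values of Tug1 show. The 10 genes with the lowest p are given as values, with no call. Atxn7l3b, which overlaps a gene on the opposite strand, had 45.3, 45.7 and 46.0 CPM with the rescue, against 52.5, 59.7 and 58.5 CPM with the knockdown and 81.7, 84.3 and 81.4 CPM in control. Its rescue values lay below both other groups (rescue against knockdown -0.32 ± 0.0675, edgeR adjusted p = 0.363), and against control it fell (log2 fold change -0.85 ± 0.0670, edgeR adjusted p = 2.35e-08). The long non-coding RNA Tug1 had 44.6, 56.0 and 49.8 CPM with the rescue, against 64.7, 71.1 and 74.0 CPM with the knockdown and 62.4, 78.4 and 70.7 CPM in control, so that the rescue libraries stood apart from knockdown and control libraries that overlapped (rescue against knockdown -0.48 ± 0.103, edgeR adjusted p = 0.363). Pcf11, a factor of transcription termination, was at 82.4 CPM in rescue, 103 CPM in knockdown and 96.5 CPM in control libraries. Rasl11a, a Ras-like GTPase gene, was at 24.1 CPM in rescue, 17.7 CPM in knockdown and 14.8 CPM in control libraries. Fkbp14, a prolyl isomerase of the endoplasmic reticulum, was at 24.1 CPM in rescue, 17.2 CPM in knockdown and 19.2 CPM in control libraries. The zinc finger homeobox gene Zhx1 was at 32.6 CPM in rescue, 44.98 CPM in knockdown and 41.2 CPM in control libraries, and 0610030E20Rik at 33.9 CPM in rescue, 43.1 CPM in knockdown and 40.9 CPM in control libraries. Grxcr2 and Entpd4b had low counts, at 1.15 CPM in rescue, 0.352 CPM in knockdown and 1.42 CPM in control libraries and at 0.504 CPM in rescue, 1.96 CPM in knockdown and 0.584 CPM in control libraries, and reads of Entpd4b may be shared with a near-identical copy. Pcf11, Fkbp14, Entpd4b and 0610030E20Rik, and Akr1b7, described next, lie over an antisense gene, and Tug1 and Zhx1 over a gene of their own strand.

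Ucp2, an inner membrane carrier of the uncoupling protein family, stood near its control level with the rescue and below it in the knockdown. It had 129.6, 111 and 111 CPM with the rescue, against 99.04, 86.0 and 85.1 CPM with the knockdown and 144, 126 and 113 CPM in control. Rescue and control values overlapped (log2 fold change -0.12 ± 0.0836, edgeR adjusted p = 0.248), while the knockdown fell below the controls (-0.50 ± 0.0843, edgeR adjusted p = 0.000154). The difference between rescue and knockdown was 0.38 ± 0.0843, edgeR adjusted p = 0.363, which did not pass. On log2(FPKM + 1), after loess, and among genes of at least 5 FPKM in 3 libraries, Ucp2 was called lower in rescue than in control. It overlaps a gene on the opposite strand, and the strand setting of the counting is not given in the sources used here, so the reads cannot be told apart. The 20 largest knockdown changes were taken among called genes with a mean of at least 1 FPKM, no overlap between groups and no Gm or Rik symbol. Among them, Akr1b7, an aldo-keto reductase gene, had 2.15, 1.11 and 1.79 CPM with the rescue, against 3.48, 3.28 and 2.95 CPM with the knockdown and 1.59, 1.31 and 1.93 CPM in control. It rose in the knockdown by 1.01 and its rescue values overlapped the controls (log2 fold change 0.06 ± 0.253, edgeR adjusted p = 0.875), yet rescue against knockdown was not called (-0.96 ± 0.237, edgeR adjusted p = 0.363). Jsrp1 was at 1.48 CPM in rescue, 2.28 CPM in knockdown and 1.18 CPM in control libraries, and likewise was called in the knockdown but not in the rescue (edgeR adjusted p = 0.424). The other 18 of these 20 genes were called in the rescue libraries too, against the same control libraries, with log2 fold changes such as 0.99 for Gyg, the glycogenin gene, and 0.96 for Lamtor3-ps.

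The 15 largest rises were taken among called genes with a mean of at least 1 FPKM, no overlap between groups and no Gm or Rik symbol. They had log2 fold changes of 1.06 to 1.51, most of them at low levels. Over all tested genes, without these rules, log2 fold changes ran from -3.65 to 3.71. Nr1d1, which encodes the clock repressor REV-ERBalpha and overlaps a gene on the opposite strand, had 168, 158 and 167 CPM with the rescue, against 146, 135 and 132 CPM with the knockdown and 72.1, 66.9 and 83.7 CPM in control. All rescue values exceeded all knockdown values, which exceeded all controls (log2 fold change 1.15 ± 0.0791, edgeR adjusted p = 4.02e-09). Plat, the gene of tissue plasminogen activator, had 132, 121 and 129 CPM with the rescue, against 119, 108 and 112 CPM with the knockdown and 58.7, 57.3 and 66.5 CPM in control, again with rescue above knockdown above control (log2 fold change 1.06 ± 0.0663, edgeR adjusted p = 8.03e-10). For neither was rescue against knockdown called (edgeR adjusted p = 0.422 and 0.523). Ciart, another repressor of the clock, was at 15.8 CPM in rescue, 13.0 CPM in knockdown and 7.54 CPM in control libraries, and Gadd45g, a growth arrest gene, at 9.50 CPM in rescue, 6.97 CPM in knockdown and 4.29 CPM in control libraries. Sqor, the mitochondrial enzyme that oxidises hydrogen sulphide, had 5.11, 5.92 and 6.33 CPM with the rescue, against 2.51, 2.69 and 3.10 CPM in control, with no overlap (log2 fold change 1.06 ± 0.161, edgeR adjusted p = 3.91e-05). Gja6, a connexin gene, Lmcd1, a LIM domain co-regulator of transcription, Rhov, a small GTPase gene, and Tm4sf1, a membrane protein gene, were at 3.23 CPM against 1.13 CPM, 3.50 CPM against 1.39 CPM, 7.22 CPM against 2.94 CPM and 5.46 CPM against 2.31 CPM in rescue and control libraries. H4c9, Lrrc70, Apol9a, Olfr1259, Fgfbp3 and Wfdc15a complete the set, with log2 fold changes of 1.23, 1.14, 1.13, 1.11, 1.10 and 1.07. H4c9, Apol9a and Olfr1259 belong to families of close copies and are uncertain, and Wfdc15a lost its call after the length and GC correction and when any 1 of 4 libraries was left out (control replicates 2 and 3, rescue replicates 2 and 3). In the knockdown, 13 of the 15 were called in the same contrast against the shared controls.

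By the same rules, the 15 largest falls had log2 fold changes of -1.82 to -1.42. Nags, which encodes N-acetylglutamate synthase of mitochondria and overlaps a gene on the opposite strand, had 1.58, 2.35 and 1.64 CPM with the rescue, against 1.85, 2.36 and 1.88 CPM with the knockdown and 8.59, 6.57 and 4.72 CPM in control. Rescue and knockdown values overlapped and both lay below all controls (log2 fold change -1.82 ± 0.267, edgeR adjusted p = 2.77e-05). The gut peptide hormone gene Pyy had 8.80, 9.21 and 8.57 CPM with the rescue, against 8.21, 11.1 and 9.04 CPM with the knockdown and 23.9, 24.6 and 24.6 CPM in control (log2 fold change -1.46 ± 0.118, edgeR adjusted p = 3.25e-08). Its neighbour in the pancreatic polypeptide family, Ppy, was at 22.05 CPM in rescue, 23.8 CPM in knockdown and 58.2 CPM in control libraries (log2 fold change -1.40 ± 0.116, edgeR adjusted p = 4.25e-08). A4galt, the Gb3 synthase gene, fell to 3.76 CPM against 10.2 CPM in control, Cnga3, a cyclic nucleotide-gated channel gene, to 3.204 CPM against 8.94 CPM in control, and Fancf, of the Fanconi anaemia core complex, to 0.822 CPM against 2.46 CPM in control. Tpbgl had 6.75 CPM in rescue, 4.74 CPM in knockdown and 20.5 CPM in control libraries, and the kinase gene Pskh1 3.88 CPM in rescue, 5.07 CPM in knockdown and 12.3 CPM in control libraries. Zfp672, Zfp629 and Zkscan2, all zinc finger genes, fell by 1.64, 1.47 and 1.42 on the log2 scale. Cep83os, Rtl6, Saysd1 and Rab36 had log2 fold changes of -1.62, -1.58, -1.43 and -1.42, and Opa1 itself is among the 15. Tpbgl, Zfp672 and Cep83os overlap a gene on the opposite strand. All 15 were also called lower in the knockdown against the shared controls.

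**Figure D3:**
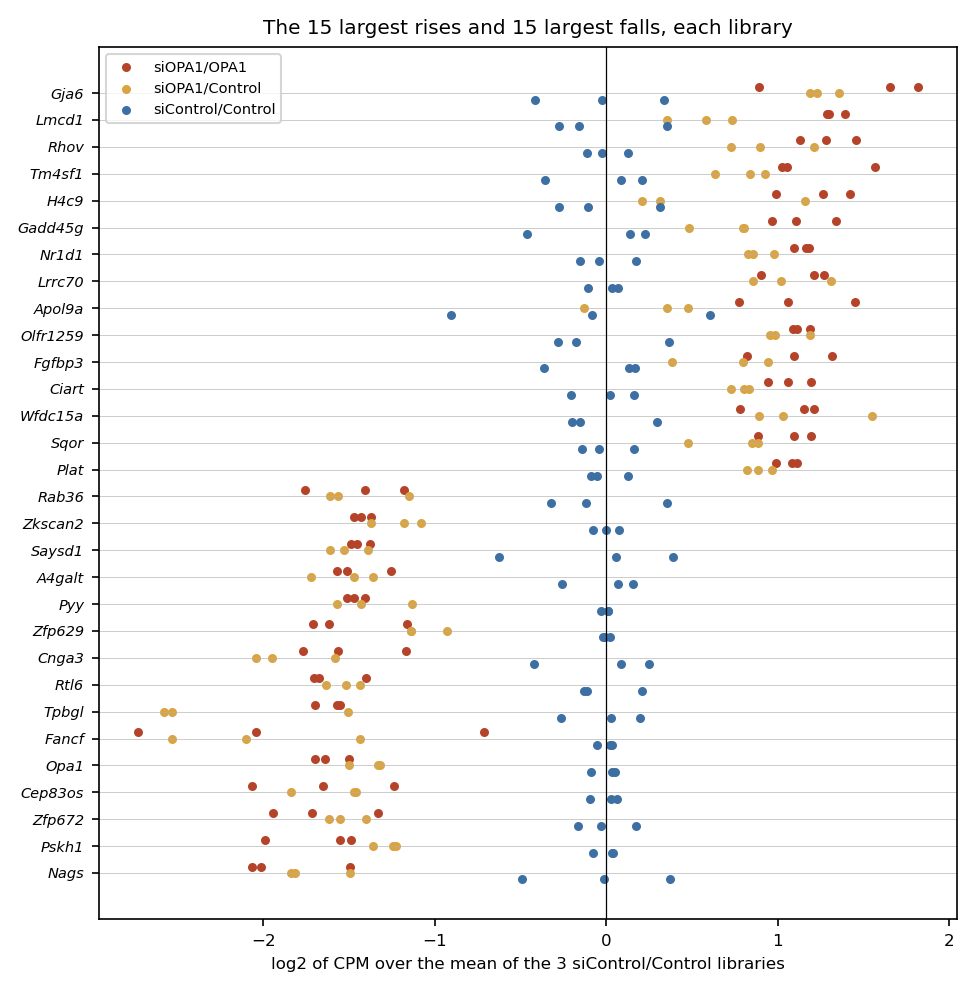
Each library's level of the 15 largest rises (top) and 15 largest falls (bottom) as log2 of CPM over the mean of the 3 control libraries, with siOPA1/OPA1, siOPA1/Control and siControl/Control drawn from top to bottom within a gene. The genes were taken among called genes with a mean of at least 1 FPKM, no overlap between groups and no Gm or Rik symbol. The siOPA1/Control libraries lie on the same side of the control mean as siOPA1/OPA1 for all but 1 library of Apol9a.

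The gene lists are read against the 22.1% of all tested genes called higher and 19.3% called lower. Those shares are not matched for level. In the highest of the 5 groups by level 1223 of 2615 genes were called higher and 250 lower. That group held 16 of 17 cytosolic chaperone, 21 of 25 cholesterol, 18 of 23 glycolysis and 29 of 38 complex II to V genes. It also held 26 of 41 integrated stress response, 16 of 26 unfolded protein response and 20 of 38 lysosomal genes, but only 5 of 78 mitochondrial ribosomal genes. Under the other scalings the values of all tested genes differ. After the length and GC correction 31.3% were higher and 14.9% lower, with a median of 0.07. After loess 2115 of 13074 were higher and 2106 lower, with a median of 0.01. On log2(FPKM + 1) 1364 were higher and 4292 lower, with a median of -0.10. Medians after the length and GC correction are marked as corrected. Among genes named from here on, Phb2, COX1, Lig3, Mrpl9, Plk3, Gadd45a, Rrm2b, Fadd, Ube2c, Hmgcs1, Gata3, Unc5c, Adar and Gnas lie over an antisense gene too, and Mief1 and COX3 over a gene of their own strand.

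Genes of the machinery that OPA1 belongs to moved in both directions. In the list of OPA1 processing and inner membrane fusion, 6 of 15 tested genes rose and 4, Opa1 among them, fell, with a median log2 fold change of 0.17 (0.16 corrected, 0.06 after loess, and 0.00 over all tested genes). The rises numbered 3 when rescue replicate 3, control replicate 2 or control replicate 3 was left out. Chchd10, an intermembrane space protein tied to cristae, had 294, 253 and 321 CPM with the rescue, against 292, 283 and 275 CPM with the knockdown and 188, 156 and 172 CPM in control, with rescue and knockdown above control (log2 fold change 0.75 ± 0.102, edgeR adjusted p = 1.18e-05). Slc25a46, an outer membrane partner of OPA1 that overlaps a gene on the opposite strand, had 24.7, 25.5 and 26 CPM with the rescue, against 25.6, 31.3 and 26.1 CPM with the knockdown and 44.4, 44.2 and 39.2 CPM in control, with rescue and knockdown below control (log2 fold change -0.75 ± 0.0947, edgeR adjusted p = 5.94e-06). The prohibitin gene Phb2 rose by 0.43 ± 0.0796. In the MICOS and cristae list, whose complex shapes cristae junctions, 10 of 16 rose and 2 fell, with a median of 0.30 (0.18 corrected, 0.21 with 7 rises after loess). Its rises were 5 without rescue replicate 3 and 6 without control replicate 2. Chchd3, a MICOS subunit, rose by 0.44 ± 0.0730, while Dnajc11 fell to 33.6 CPM against 44.9 CPM in control. Outer membrane fusion and fission genes gave 2 rises and 4 falls of 16, with a median of -0.02 that was 0.04 corrected and 0.0043 after loess. The fission receptor gene Fis1 rose by 0.32 ± 0.0781, and Mief1 and Inf2, which act in division, fell by 0.37 and 0.46. Of 15 cardiolipin and phospholipid transfer genes, 5 rose (3 without rescue replicate 3 or control replicate 2) and 2 fell (median 0.19, against 0.10 corrected, 0.07 after loess and 0.02 on log2(FPKM + 1)), including Taz, the tafazzin gene, at 14.9 CPM against 23.0 CPM in control (log2 fold change -0.62 ± 0.107, edgeR adjusted p = 0.000127).

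Nuclear genes of the respiratory chain rose together in modest steps. Of complex I subunits 25 of 36 rose and 0 fell by edgeR, with a median of 0.35, and of complexes II to V 32 of 38 rose and 0 fell, with a median of 0.37. Length and GC correction left 16 and 24 rises with medians of 0.14 and 0.19, and loess 19 and 17 with 0.26 and 0.19. Cox4i1, of complex IV, had 604, 550.5 and 678 CPM with the rescue, against 540.5, 554 and 581 CPM with the knockdown and 451, 424 and 439 CPM in control. Rescue values exceeded all control values (log2 fold change 0.48 ± 0.0881, edgeR adjusted p = 0.000245). Atp5b, the beta subunit of ATP synthase, rose by 0.43 ± 0.0684. After loess Atp5b stood at 0.08 (limma adjusted p = 0.196). In the knockdown, against the same controls, 18 complex I and 29 complex II to V genes were called higher. The RNAs made inside mitochondria did not share this pattern. Of 13 mitochondrially encoded genes, 2 rose and 1 fell, with a median of 0.13 that was -0.06 after length correction and -0.03 after loess. COX1, a subunit of complex IV, was called higher (log2 fold change 0.34 ± 0.0685, edgeR adjusted p = 0.000502), but was at -0.23 after loess. CYTB, of complex III, fell by 0.21, and by 0.66 after loess. The 2 rises were COX1 and COX3, whose rescue and control values overlapped and whose reads may be shared with nuclear copies.

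Mitochondrial ribosomal protein genes gave 41 rises and 2 falls of 78, with a median of 0.25 (0.15 with 33 rises after length correction, 0.21 with 31 after loess). Without rescue replicate 3 the rises numbered 22, and without control replicate 2 they numbered 26. Mrpl9 was at 77.1 CPM in rescue, 70.8 CPM in knockdown and 56.0 CPM in control libraries, and Mrps2, which fell, at 13.7 CPM in rescue, 12.1 CPM in knockdown and 19.8 CPM in control libraries. Of 29 import genes, 11 rose (7 without rescue replicate 3) and 2 fell (median 0.23, against 0.04 corrected, 0.18 after loess and 0.06 on log2(FPKM + 1)). Tomm20, the import receptor of the outer membrane, rose by 0.41 ± 0.0744, and Hspa9, the mortalin chaperone that pulls proteins into the matrix, had 1158, 1083 and 1280.1 CPM with the rescue, against 1178, 1131 and 1206 CPM with the knockdown and 849.8, 826 and 890.1 CPM in control (log2 fold change 0.46 ± 0.0672, edgeR adjusted p = 2.86e-05). Of 14 matrix chaperones and proteases, the genes of a mitochondrial unfolded protein response, 2 were higher and 2 lower (median 0.07, against 0.06 corrected, -0.04 after loess and -0.09 on log2(FPKM + 1)). Both shares lay below the 22.1% and 19.3% of all tested genes. Hspe1, a matrix chaperonin, was at 0.27 and lost its call after the length correction, loess and without rescue replicate 3 or control replicate 2. Of 21 mitochondrial DNA maintenance and biogenesis genes 5 were up and 5 down, near the 22.1% and 19.3% of all tested genes (median -0.01, against -0.05 corrected, -0.03 after loess and -0.14 on log2(FPKM + 1)). The rises were 3 without rescue replicate 3, and the falls 2 without rescue replicate 1 and 3 without rescue replicate 2 or control replicate 1. Ppargc1b, a co-activator of mitochondrial biogenesis, rose by 0.33 ± 0.0849, and Lig3, the DNA ligase that acts in mitochondria, fell by 0.53.

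Chaperone genes of the endoplasmic reticulum stayed high with the rescue. Of 26 tested genes of its unfolded protein response, 16 rose and 1 fell, with a median of 0.36. The rises were 18 with a median of 0.32 after the length and GC correction and 14 with 0.19 after loess. In the knockdown 14 were called higher and 1 lower, against the same controls. Hspa5, which encodes BiP, the main chaperone of the compartment, had 1571, 1337 and 1578 CPM in the rescue libraries, against 1453, 1328 and 1398 CPM in the knockdown libraries and 931, 855 and 984 CPM in the control libraries. Rescue and knockdown values overlapped, and all lay above the controls (log2 fold change 0.69 ± 0.0761, edgeR adjusted p = 1.21e-06). Calr, the calreticulin gene, had 1168, 1042 and 1213 CPM in the rescue libraries, against 1108, 1065 and 1098 CPM in the knockdown libraries and 761, 724 and 796 CPM in the control libraries and again rescue and knockdown lay above the controls (log2 fold change 0.59 ± 0.0676, edgeR adjusted p = 2.22e-06). Pdia6, a disulphide isomerase gene, rose by 0.56 ± 0.0751 and Hsp90b1, which encodes GRP94, by 0.50 ± 0.0670. Both overlap a gene on the opposite strand. After loess the rises of Hspa5, Calr, Pdia6 and Hsp90b1 were 0.36, 0.27, 0.32 and 0.14.

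Promoters of 3 of these genes are printed because they carry the endoplasmic reticulum stress element, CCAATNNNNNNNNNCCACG, which binds ATF6 with NF-Y. Each run is the 250 bases before the RefSeq start on GRCm38.p6, 5′ to 3′ on the gene's strand, with matches on either strand in capitals.
Hspa5 (chr2:34771840-34772089, plus strand): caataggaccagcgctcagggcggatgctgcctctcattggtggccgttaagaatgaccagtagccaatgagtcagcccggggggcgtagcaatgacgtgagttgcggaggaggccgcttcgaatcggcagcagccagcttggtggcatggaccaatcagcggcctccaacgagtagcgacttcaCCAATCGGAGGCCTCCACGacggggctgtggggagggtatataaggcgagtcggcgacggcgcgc
Calr (chr8:84846932-84847181, minus strand): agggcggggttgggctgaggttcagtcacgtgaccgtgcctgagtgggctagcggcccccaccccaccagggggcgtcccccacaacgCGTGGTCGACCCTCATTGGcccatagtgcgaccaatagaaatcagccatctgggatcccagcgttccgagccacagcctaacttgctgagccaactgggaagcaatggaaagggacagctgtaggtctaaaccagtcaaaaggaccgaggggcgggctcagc
Hsp90b1 (chr10:86705445-86705694, minus strand): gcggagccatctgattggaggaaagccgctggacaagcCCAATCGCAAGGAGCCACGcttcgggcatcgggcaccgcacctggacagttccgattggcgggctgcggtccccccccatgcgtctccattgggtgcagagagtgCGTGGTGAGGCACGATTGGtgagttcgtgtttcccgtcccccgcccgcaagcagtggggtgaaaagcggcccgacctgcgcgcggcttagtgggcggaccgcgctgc
Hspa5 and Calr hold 1 match each and Hsp90b1 holds 2. Searched over the 250 bases before to 50 after the start, 8 of the 22 genes of the list that had a RefSeq promoter carried a match, and 7 of the 8 rose. Of all 32851 promoters of that length, 0.119% carried one. A match describes letters in the window, not binding.

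Targets of the integrated stress response also stayed above control with TMM scaling, and less so after loess. Of 41 tested, 23 rose and 3 fell, with a median of 0.26 (0.27 after length correction). Loess left 10 rises and 5 falls, with a median of 0.06, and on log2(FPKM + 1) 16 rose and 7 fell with 0.06. By edgeR 0 falls were called without control replicate 1 and 1 without control replicate 2 or rescue replicate 3. Ddit3, the gene of the stress factor CHOP, had 230.1, 195 and 260.0 CPM in the rescue libraries, against 207, 196 and 205 CPM in the knockdown libraries and 115, 108 and 131 CPM in the control libraries. Rescue and knockdown values overlapped, and all values exceeded the controls (log2 fold change 0.95 ± 0.0968, edgeR adjusted p = 5.91e-07; 0.76 after loess). Ddit3 overlaps genes on both strands. Nupr1, a stress-induced co-regulator of transcription, had 87.7, 72.9 and 93.5 CPM in the rescue libraries, against 76.4, 65.7 and 70.6 CPM in the knockdown libraries and 52.1, 46.0 and 51.7 CPM in the control libraries (log2 fold change 0.76 ± 0.0969, edgeR adjusted p = 6.00e-06). Cebpb, a partner of ATF4 and CHOP, was at 31.8 CPM in rescue, 28.5 CPM in knockdown and 19.4 CPM in control libraries, and Phgdh, the entry enzyme of serine synthesis, at 332 CPM in rescue, 318 CPM in knockdown and 221 CPM in control libraries. Both rose (0.71 ± 0.0927 and 0.58 ± 0.0710). Among kinases and regulators of eIF2alpha, 6 of 13 rose and 3 fell (median 0.13, against 0.24 corrected, 0.03 after loess and -0.03 on log2(FPKM + 1)). Eif2ak1, the HRI kinase gene, fell to 18.3 CPM against 27.2 CPM in control (log2 fold change -0.57 ± 0.103, edgeR adjusted p = 0.000201), and Eif2ak2, the PKR gene, to 19.9 CPM against 31.8 CPM in control (log2 fold change -0.68 ± 0.0874, edgeR adjusted p = 6.68e-06). Both overlap a gene on the opposite strand.

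The promoter of Nupr1 is shown for its C/EBP-ATF response element, TGATGNAA, the kind of site that ATF4 and CHOP bind, in the same window and build.
Nupr1 (chr7:126625471-126625720, minus strand): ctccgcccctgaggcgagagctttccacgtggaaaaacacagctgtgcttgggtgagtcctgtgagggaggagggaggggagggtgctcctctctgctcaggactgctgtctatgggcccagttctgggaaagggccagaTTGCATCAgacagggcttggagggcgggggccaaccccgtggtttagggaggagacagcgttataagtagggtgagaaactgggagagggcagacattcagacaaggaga
The match, on the opposite strand, is in capitals. Of 33 tested targets with a RefSeq promoter 12 carried such a match, and 3.97% of all promoters carried one. Among the 12, 6 rose and 3 fell, and these 3 were the only falls of the list by edgeR.

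Cytosolic chaperones had 11 rises and 2 falls of 17 with a median of 0.20, and 14 rises, 2 falls and 0.25 corrected. After loess they had 0 rises, 5 falls and a median of -0.03. There the chaperonin gene Cct5, for example, was at 0.05, against 0.36 with TMM scaling. In the NRF2 and antioxidant list 12 of 23 rose (7 without rescue replicate 3) and 3 fell (1 without control replicate 2), with a median 0.18, against 0.16 corrected, 0.12 after loess and 0.02 on log2(FPKM + 1). Ftl1, the ferritin light chain gene, was at 1879 CPM in rescue, 1735 CPM in knockdown and 1189 CPM in control libraries, Gpx4, which reduces lipid peroxides, rose by 0.57 ± 0.0820, and Keap1, the inhibitor of NRF2, fell to 14.1 CPM against 23.5 CPM in control. Reads of Ftl1 and Keap1 overlap another gene. Of 19 genes of p53 and growth arrest, 8 rose and 2 fell (median 0.22, against 0.34 corrected, 0.14 after loess and 0.05 on log2(FPKM + 1)). Plk3, a stress kinase, and Gadd45a rose by 0.64 ± 0.0866 and 0.77 ± 0.109, and Rrm2b, a ribonucleotide reductase subunit, fell by 0.70. The BCL2 family and apoptosis list had 6 rises and 6 falls of 29, close to the 22.1% and 19.3% of all tested genes (median -0.01, against -0.07 corrected, -0.02 after loess and -0.17 on log2(FPKM + 1)). Bbc3, which encodes the pro-apoptotic PUMA, was at 19.1 CPM in rescue, 16.9 CPM in knockdown and 12.6 CPM in control libraries and rose, as did Mcl1, which opposes it, by 0.34 ± 0.0639. Bmf, another pro-apoptotic member, fell by 0.69, and Fadd, the adaptor of death receptors, was at 2.05 CPM in rescue, 2.20 CPM in knockdown and 4.97 CPM in control libraries.

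Lysosomal genes rose with the rescue, and their median was positive under each of the 4 scalings, as were those of several other lists. Of 38 tested, 28 rose and 0 fell by edgeR, with a median of 0.42. Corrected for length and GC content 32 rose with a median of 0.44, after loess 21 with 0.30, and on log2(FPKM + 1) the median was 0.24. In the knockdown 28 rose and 1 fell. Hexa, the gene of the alpha subunit of hexosaminidase, which degrades gangliosides, had 105, 105 and 109.7 CPM in the rescue libraries, against 98.5, 94.7 and 96.8 CPM in the knockdown libraries and 70.1, 65.8 and 68.4 CPM in the control libraries. All rescue values exceeded all knockdown values, and those exceeded all controls (log2 fold change 0.65 ± 0.0591, edgeR adjusted p = 1.76e-07), though rescue against knockdown was not called (0.14 ± 0.0585, edgeR adjusted p = 0.537). Man2b1, the lysosomal alpha-mannosidase gene, had 74.0, 74.3 and 75.9 CPM in the rescue libraries, against 68.2, 61.9 and 69.3 CPM in the knockdown libraries and 52.1, 48.5 and 51.1 CPM in the control libraries, in the same order (log2 fold change 0.56 ± 0.0635, edgeR adjusted p = 1.78e-06). Lamp1, a glycoprotein of the lysosomal membrane, was at 789 CPM in rescue, 752 CPM in knockdown and 556 CPM in control libraries (log2 fold change 0.50 ± 0.0605, edgeR adjusted p = 3.42e-06). Lamp1 overlaps a gene on the opposite strand.

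The promoter of Lamp1 is printed because it holds 4 copies of CACGTG, the E-box core of the sites that TFEB and TFE3 bind, again in the 250 bases before the RefSeq start.
Lamp1 (chr8:13158911-13159160, plus strand): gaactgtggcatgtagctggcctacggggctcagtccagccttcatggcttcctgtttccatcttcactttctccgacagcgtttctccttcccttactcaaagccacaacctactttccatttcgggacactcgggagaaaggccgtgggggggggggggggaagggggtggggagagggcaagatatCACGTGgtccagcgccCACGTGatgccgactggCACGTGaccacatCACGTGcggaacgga
The copies, in capitals, lie close together before the start. Of 30 tested lysosomal genes with a RefSeq promoter 11 held CACGTG, and 9 of these rose. It was present in 7.15% of all promoters of the same length, and many factors other than TFEB bind it.

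Of 38 autophagy genes 13 were higher and 3 lower by edgeR (median 0.10, against 0.14 corrected, 0.02 after loess and -0.06 on log2(FPKM + 1)). Loess left 9 rises and 5 falls, and log2(FPKM + 1) 9 rises and 12 falls, on a scale where the median of all tested genes was -0.10. Sqstm1, the p62 receptor that links cargo to autophagosomes, had 1139.6, 1066 and 1213 CPM in the rescue libraries, against 1090.4, 1058 and 1114 CPM in the knockdown libraries and 722, 694 and 762 CPM in the control libraries. Rescue and knockdown lay above control (log2 fold change 0.65 ± 0.0653, edgeR adjusted p = 5.63e-07). Gabarap and Gabarapl2, of the ATG8 family, rose by 0.51 ± 0.0856 and 0.44 ± 0.0683, and Atg14, a subunit of the lipid kinase that starts autophagosomes, was at 25.5 CPM in rescue, 24.2 CPM in knockdown and 17.3 CPM in control libraries. Sqstm1 and Atg14 overlap a gene on the opposite strand.

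**Figure D4:**
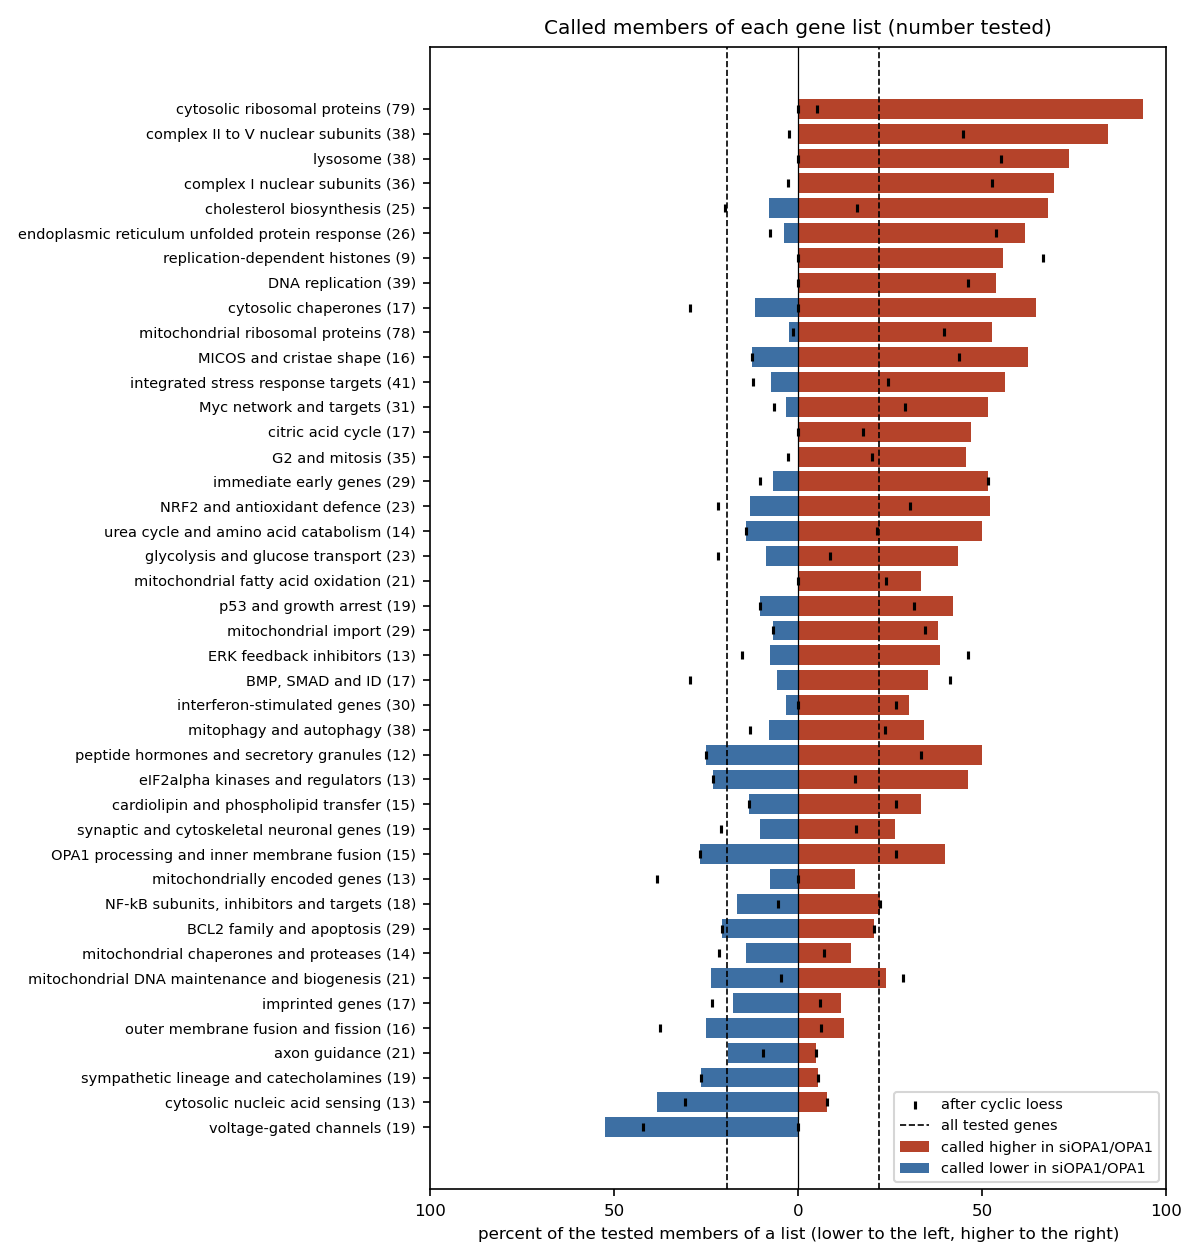
Percent of the tested members of each gene list called higher (right) or lower (left) in siOPA1/OPA1 than in siControl/Control, with the number tested in brackets. Dashed lines are the 22.1% and 19.3% of all tested genes with TMM scaling, and ticks the percent of each list called after cyclic loess. Loess called 2115 of all 13074 genes higher and 2106 lower. Cytosolic ribosomal proteins lie furthest right with TMM scaling and near 0 after loess, while lysosomal genes stay right of the dashed line in both.

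Genes of growth and division were higher, to a degree that depended on the scaling. Of 79 cytosolic ribosomal protein genes 74 rose, with a median of 0.41, and 71 were called higher in the knockdown. After length and GC correction 61 rose with a median of 0.19, and after loess 4 with 0.10. They are short and abundant, with 77 of the 79 in the highest of the 5 groups by level, and close copies may split their reads. Rps2 was at 1310.5 CPM in rescue, 1235 CPM in knockdown and 919 CPM in control libraries. Of 39 DNA replication genes 21 rose (14 without rescue replicate 3), 21 corrected, 18 after loess and 6 on log2(FPKM + 1), where 2 fell (median 0.26, against 0.21 corrected, 0.23 after loess and 0.09 on log2(FPKM + 1)). Cdt1, which licenses replication origins, had 72.9, 73.7 and 78.0 CPM in the rescue libraries, against 75.0, 76.4 and 74.4 CPM in the knockdown libraries and 49.6, 45.8 and 50.0 CPM in the control libraries. Rescue and knockdown overlapped above the controls (log2 fold change 0.63 ± 0.0614, edgeR adjusted p = 3.89e-07). Mcm4, of the replicative helicase, rose by 0.55 ± 0.0874. In G2 and mitosis 16 of 35 rose (9 without rescue replicate 3, 7 after loess, median 0.13, against 0.16 corrected, 0.02 after loess and -0.02 on log2(FPKM + 1)), among them Ube2c, the ubiquitin ligase partner of the anaphase complex, by 0.59 ± 0.0872 and Cdk1 by 0.39 ± 0.0727. Replication-dependent histone genes rose in 5 of 9 cases (median 0.84, against 0.65 corrected, 1.12 after loess and 0.22 on log2(FPKM + 1)). Their median level was only 1.21 CPM, and 6 of the 9 lay in the lowest of the 5 groups by level. H1f2, a linker histone gene, was at 27.6 CPM in rescue, 23.3 CPM in knockdown and 17.7 CPM in control libraries, and these genes also have close copies. In the Myc network 16 of 31 rose and 1 fell (median 0.22, against 0.23 corrected, 0.10 after loess and 0.05 on log2(FPKM + 1)). Mnt, which opposes Myc, rose by 0.50 ± 0.0797 and Nop58, of ribosome assembly, by 0.42 ± 0.0696.

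Metabolic lists had small medians, and for 3 of them the sign turned after loess but not after the length and GC correction. Cholesterol biosynthesis had 17 rises and 2 falls of 25 and a median of 0.18. The values were 20, 0 and 0.23 corrected, and 4, 5 and -0.02 after loess. Its rises were 8 without control replicate 2 and 11 without rescue replicate 1. In the knockdown 8 genes of the list were called higher and 4 lower. Insig1, the sterol-sensing retention protein, was at 531 CPM in rescue, 531 CPM in knockdown and 369 CPM in control libraries. It rose with TMM scaling and after loess (log2 fold change with TMM 0.52 ± 0.0560, edgeR adjusted p = 9.58e-07). Hmgcs1, an early enzyme of the pathway, was called at 0.29 but stood at -0.046 after loess. Glycolysis genes rose in 10 of 23 cases (6 without rescue replicate 3) and fell in 2, with a median of 0.19. Corrected, 15 rose and 1 fell with 0.22, and after loess 2 rose and 5 fell with -0.05. Slc16a1, the lactate transporter gene, was at 159 CPM in rescue, 159 CPM in knockdown and 119 CPM in control libraries. The hexokinase gene Hk1 was called at 0.33, against -0.05 after loess. Of 17 citric acid cycle genes 8 rose, with a median of 0.15 (0.14 with 9 rises corrected, -0.01 with 3 after loess). Fatty acid oxidation genes rose in 7 of 21 cases (4 without rescue replicate 3 or control replicate 2), and none of the list fell by edgeR (median 0.14, against 0.12 corrected, 0.11 after loess and -0.01 on log2(FPKM + 1)). Hadh, of beta-oxidation, rose by 0.47 ± 0.0755. In the urea cycle and amino acid list 7 of 14 rose and 2, Nags among them, fell (median 0.24, against 0.29 corrected, 0.14 after loess and 0.07 on log2(FPKM + 1)). The aspartate aminotransferase gene Got1 rose by 0.32 ± 0.0556.

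**Figure D5:**
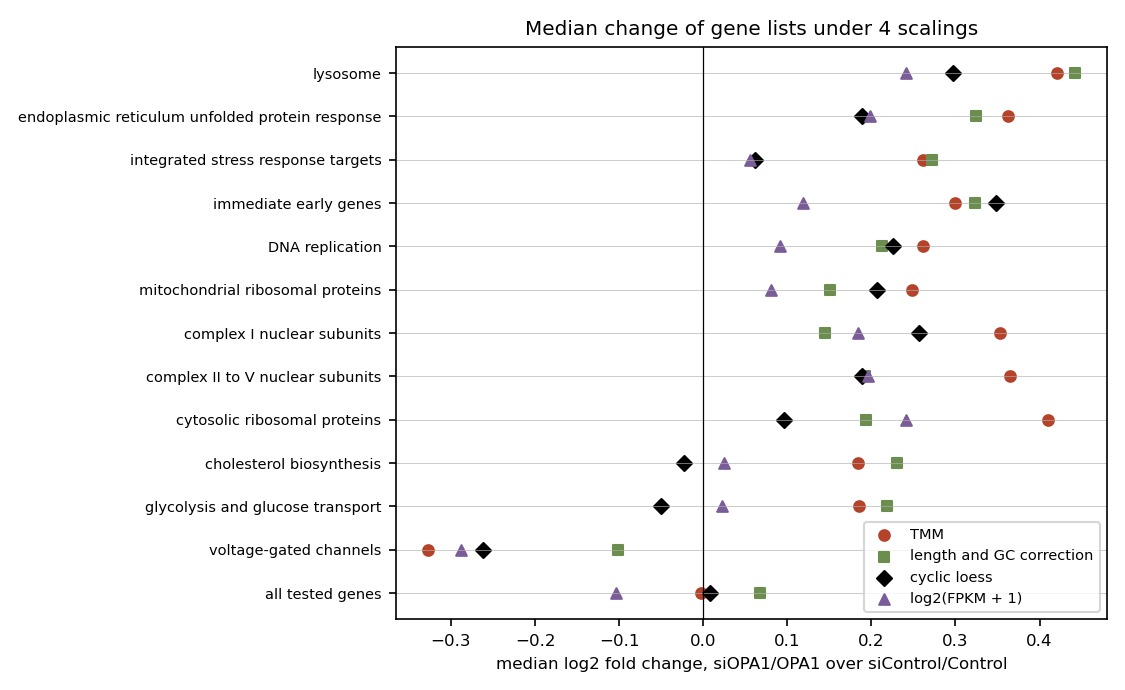
Median log2 fold change, siOPA1/OPA1 over siControl/Control, of 12 gene lists and of all tested genes under TMM, after length and GC correction, after cyclic loess and on log2(FPKM + 1). The medians of lysosomal, unfolded protein response, integrated stress response, immediate early and DNA replication genes are positive under all 4. So are those of mitochondrial and cytosolic ribosomal proteins and of complex I and complex II to V subunits. That of voltage-gated channels is negative under all 4, while cholesterol and glycolysis turn negative after loess.

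In the list of voltage-gated channels 10 of 19 fell and 0 rose by edgeR, with a median of -0.33. Loess left 8 falls with -0.26, and the length and GC correction 5 falls, 1 rise and -0.10. Scn2a, a neuronal sodium channel gene, had 21.8, 22.6 and 17.1 CPM in the rescue libraries, against 22.8, 21.1 and 20.8 CPM in the knockdown libraries and 28.6, 33.6 and 31.2 CPM in the control libraries. Rescue and knockdown values lay below control (log2 fold change -0.60 ± 0.107, edgeR adjusted p = 0.000172), and the corrected log2 fold change was -0.43.

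Among sympathetic lineage and catecholamine genes 5 of 19 fell and 1 rose, against 19.3% lower among all genes (median -0.04, against 0.02 corrected, -0.09 after loess and -0.20 on log2(FPKM + 1)). Elavl4, the neuronal RNA-binding protein HuD, had 78.4, 72.2 and 67.7 CPM in the rescue libraries, against 79.7, 79.1 and 72.3 CPM in the knockdown libraries and 122, 127 and 110.4 CPM in the control libraries. All rescue values were below all controls (log2 fold change -0.72 ± 0.0742, edgeR adjusted p = 6.49e-07). Slc18a2, the vesicular monoamine transporter gene, which overlaps a gene on the opposite strand, had 133, 138 and 134 CPM in the rescue libraries, against 129, 118 and 129.6 CPM in the knockdown libraries and 188, 196 and 180.5 CPM in the control libraries. Here too the groups did not overlap (log2 fold change -0.48 ± 0.0661, edgeR adjusted p = 1.50e-05). Gata3, a transcription factor of sympathetic neuroblasts, rose by 0.57 ± 0.127. Of the 16 tested neuroblast identity markers 3 rose and 3 fell (median 0.05, against 0.08 corrected, -0.05 after loess and -0.11 on log2(FPKM + 1)). In the list of peptide hormones and secretory granules 6 of 12 rose and 3 fell (median 0.26, against 0.25 corrected, 0.11 after loess and 0.09 on log2(FPKM + 1)). Npy, the neuropeptide Y gene, had 6, 5.99 and 5.36 CPM in the rescue libraries, against 5.29, 4.02 and 3.56 CPM in the knockdown libraries and 2.82, 2.66 and 2.95 CPM in the control libraries, opposite in direction to Pyy and Ppy of its own family (log2 fold change 1.04 ± 0.172, edgeR adjusted p = 8.65e-05). Scg2, a granin gene, was at 851 CPM in rescue, 738 CPM in knockdown and 622 CPM in control libraries. Axon guidance had 1 rise and 4 falls of 21, a share of falls near the 19.3% of all genes, and 6 rises and 3 falls corrected (median -0.03, against 0.11 corrected, -0.13 after loess and -0.15 on log2(FPKM + 1)). Slit3, a secreted guidance cue, was at 11.2 CPM in rescue, 10.2 CPM in knockdown and 18.1 CPM in control libraries, and Unc5c, a netrin receptor gene, fell by 0.48. Of 19 synaptic and cytoskeletal genes 5 rose and 2 fell (median 0.08, against 0.20 corrected, -0.05 after loess and -0.07 on log2(FPKM + 1)). Cntnap2, of the neurexin superfamily, was at 0.889 CPM in rescue, 0.764 CPM in knockdown and 3.68 CPM in control libraries, and Stmn2, a tubulin-binding neuronal protein gene, rose by 0.42 ± 0.0799.

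Immediate early genes, which respond rapidly to signalling, had a positive median under each scaling, as did several other lists. Of 29 tested 15 rose and 2 fell (median 0.30, against 0.32 corrected, 0.35 after loess and 0.12 on log2(FPKM + 1)), and on log2(FPKM + 1) 11 rose and 4 fell. Klf6 had 258, 235 and 253 CPM in the rescue libraries, against 227, 216 and 234 CPM in the knockdown libraries and 165, 151 and 167 CPM in the control libraries. Rescue values lay above control values with no overlap (log2 fold change 0.63 ± 0.0613, edgeR adjusted p = 3.65e-07). Fosb, an AP-1 subunit, had 7.91, 9.35 and 8.87 CPM in the rescue libraries, against 7.34, 6.06 and 8.39 CPM in the knockdown libraries and 5.38, 4.30 and 4.003 CPM in the control libraries, again above control, while rescue and knockdown overlapped (log2 fold change 0.94 ± 0.143, edgeR adjusted p = 4.32e-05). The small MAF gene Maff and the nuclear receptor gene Nr4a1 rose by 0.66 ± 0.0800 and 0.64 ± 0.0907. Inhibitors of the ERK pathway rose in 5 of 13 cases and fell in 1 (median 0.16, against 0.25 corrected and 0.01 after loess). Dusp4, a phosphatase of ERK, was at 588 CPM in rescue, 556 CPM in knockdown and 373 CPM in control libraries and Spry4 at 42.2 CPM in rescue, 37.9 CPM in knockdown and 27.4 CPM in control libraries. NF-kB genes had 4 rises and 3 falls of 18, near the 22.1% and 19.3% of all tested genes (median 0.10, against 0.17 corrected, 0.12 after loess and -0.05 on log2(FPKM + 1)). Birc3, an inhibitor of apoptosis, was at 0.921 CPM in rescue, 1.16 CPM in knockdown and 2.71 CPM in control libraries, and Nfkbiz rose by 0.33 ± 0.0820. Of 17 genes of BMP, SMAD and ID 6 rose and 1 fell, with 7 and 5 after loess (median -0.01, against 0.14 corrected, -0.07 after loess and -0.12 on log2(FPKM + 1)). Id1 and Id3, targets of BMP signalling, were at 16.6 CPM in rescue, 15.2 CPM in knockdown and 9.92 CPM in control libraries and at 6.20 CPM in rescue, 4.91 CPM in knockdown and 2.98 CPM in control libraries, and both rose.

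Interferon-stimulated genes gave 9 rises and 1 fall of 30, with a median 0.11, against 0.09 corrected, 0.16 after loess and -0.04 on log2(FPKM + 1). Without rescue replicate 3 the rises were 5. In the knockdown 3 were called higher and 1 lower. The direct test called no gene in the whole table, so it does not tell whether this list differs between rescue and knockdown. In that comparison the median of the list was 0.19, against 0.0008 over all tested genes. Cxcl10, a chemokine gene, had 4.05, 6.15 and 5.997 CPM in the rescue libraries, against 3.25, 2.82 and 4.13 CPM in the knockdown libraries and 3.83, 3.18 and 3.25 CPM in the control libraries. The knockdown values overlapped the controls, and the rescue values lay above both (log2 fold change 0.67 ± 0.177, edgeR adjusted p = 0.00485; rescue against knockdown 0.68 ± 0.179, edgeR adjusted p = 0.363). B2m, the light chain of MHC class I, was at 346 CPM in rescue, 311 CPM in knockdown and 224 CPM in control libraries, and Rsad2, the viperin gene, at 15.5 CPM in rescue, 12.3 CPM in knockdown and 10.7 CPM in control libraries. Of 13 sensors of cytosolic nucleic acid 5 were lower, against 19.3% of all genes, and 1 was higher, with a median of 0.0054 (0.01 corrected, -0.08 after loess). Irf3, the transcription factor of that pathway, was at 7.39 CPM in rescue, 7.03 CPM in knockdown and 12.4 CPM in control libraries, and Adar, the RNA editing enzyme gene, fell by 0.45. Of 17 imprinted genes 2 rose and 3 fell (median -0.14, against 0.02 corrected, -0.08 after loess and -0.06 on log2(FPKM + 1)). Peg13, a non-coding RNA, had 17.6, 16.4 and 14.0 CPM in the rescue libraries, against 14.4, 14.9 and 12.9 CPM in the knockdown libraries and 35.7, 41.0 and 35.5 CPM in the control libraries, with rescue and knockdown far below control (log2 fold change -1.23 ± 0.1003, edgeR adjusted p = 3.69e-08), while Peg3, a zinc finger gene expressed from the paternal allele, was at 233 CPM in rescue, 245 CPM in knockdown and 399.6 CPM in control libraries. Gnas was called at 0.30 but stood at -0.08 after loess.

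The same genes were read in the mutant groups, set against the rescue libraries. Of the 15 largest rises, 7 were higher still with V560F than with wild-type OPA1 and 7 with V465F, and 0 were lower in either by edgeR. Of the 15 largest falls, 9 were lower with V560F and 1 higher, and 6 were lower with V465F and 1 higher. Over 13074 tested genes, 3204 were called higher and 3260 lower with V560F than in the rescue libraries, and 2367 and 2621 with V465F. These comparisons share the rescue libraries with those above. The slopes with transcript length were -0.82 to -0.31 with V560F and -0.30 to -0.22 with V465F. The mutant comparisons were not repeated after the length and GC correction or loess, and the part of these trends was not tested. Plat averaged 137 CPM with V560F and 154 CPM with V465F, against 127 CPM in the rescue libraries (0.11 ± 0.0651, edgeR adjusted p = 0.161 and 0.28 ± 0.0649, edgeR adjusted p = 0.00198). Elavl4 averaged 41.4 CPM with V560F and 46.1 CPM with V465F, against 72.8 CPM (-0.81 ± 0.0780, edgeR adjusted p = 1.08e-07 and -0.66 ± 0.0771, edgeR adjusted p = 2.54e-06). Hexa averaged 137 CPM with V560F and 136 CPM with V465F, against 107 CPM (0.36 ± 0.0586, edgeR adjusted p = 2.77e-05 and 0.35 ± 0.0585, edgeR adjusted p = 0.000107). Hspa5 averaged 2050.1 CPM with V560F and 2157 CPM with V465F, against 1495 CPM (0.46 ± 0.0758, edgeR adjusted p = 4.03e-05 and 0.53 ± 0.0759, edgeR adjusted p = 2.27e-05). Opa1 itself was not called in either mutant group against the rescue libraries (edgeR adjusted p = 0.818 and 0.333).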

How the data were processed

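The deposited table gives 1 column of gene counts and 1 of FPKM for each of the 15 libraries. The authors' counts are raw whole numbers per gene, and FPKM equals these counts over gene length and the column total to a relative gap of 1.9e-06. fastp, HISAT2, HTSeq, R 3.2.0 and the build GRCm39 are named in the submitters' processing notes. Versions of the other tools, the annotation and the strand setting are not given in the sources used here. Total RNA was taken up in TRIzol, per the labels' protocols. Group and replicate come from the sample titles.

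Counts of all 15 libraries were fitted with edgeR 4.0.16 in R 4.3.3 (filterByExpr, TMM, a mean per group, quasi-likelihood F-test, 10 residual degrees of freedom), and p-values were adjusted by Benjamini-Hochberg over 13074 genes. The code was tested on simulated counts. Lengths came from counts and FPKM, GC content and overlaps from GENCODE M21, promoters from RefSeq on GRCm38.p6. The correction for both removed each library's trend, fitted with splines of 5 degrees of freedom over 12510 genes. Totals ran from 20070123 to 27809960 counts.

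Named genes are Opa1, the 15 largest rises and 15 largest falls among called genes with no overlap between groups, a mean of at least 1 FPKM and a symbol that is no Gm or Rik identifier, the 10 largest each way in the knockdown, the 10 lowest p of rescue against knockdown, and the 4 called members of lowest adjusted p in each of 46 lists. The comparison and the lists were chosen with earlier results of these data known. Alternatives were DESeq2 1.42.0, its size factors, other filters on low values, the 6 compared libraries alone, the replicate number as a block, limma 3.58.1 on log2(FPKM + 1) and log2(FPKM + 0.1), and each library left out. Cyclic loess with limma, leaving out rescue replicate 3 and V560F replicate 2, and only genes with length and GC values were added after seeing the data. Some genes that meet these rules are not reported here.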

Additional observations from a re-analysis of the deposited data

How the results depend on the processing

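Rescue against control kept calls in both directions under every setting tried. Among genes of at least 5 FPKM in 3 libraries 3327 were called, 1622 of them higher, in a smaller set of tested genes. On log2(FPKM + 1) 1364 were higher and 4292 lower, and on log2(FPKM + 0.1) 1344 and 3935. DESeq2 gave 3121 higher and 2447 lower, its size factors 3031 and 2429, no filter 2983 and 2358, and the 6 libraries alone 2893 and 3009. Leaving out 1 library gave 3925 to 5141 calls, 2114 to 2784 higher and 1811 to 2357 lower. The knockdown gave 2606 calls with the 5 FPKM filter, 3124 after loess, and 3235 to 4151 without 1 library. Rescue against knockdown gave 7 calls with DESeq2, 40 with no filter, 3 with the 6 libraries alone, 10 with the replicate block and the length and GC correction, 2 without rescue replicate 3 and V560F replicate 2, and 0 without any single library. After loess the sign turned in the rescue for COX1 (-0.235), Hmgcs1 (-0.046), Hk1 (-0.0504) and Gnas (-0.0802), and in the knockdown for COX1 (-0.178), Msmo1 (-0.0039), Hmgcs1 (-0.067), Scg2 (-0.013) and Gnas (-0.213). The cause was not tested. Replicate numbers are not said to pair the samples. Deviations of rescue and control libraries with the same number correlated at 0.0094, 0.073 and 0.032 across genes, and only replicate 2 correlated best with its own number. For knockdown and control libraries the values were 0.088, 0.036 and 0.082, and for rescue and knockdown libraries 0.063, 0.028 and 0.056. In both of these comparisons every replicate correlated best with its own number. With the replicate number as a block, 5441 genes were called in the rescue (2911 higher), 4676 in the knockdown and 0 between them. With 3 libraries a group and 22186086 counts or more, the unadjusted 95% interval of the median gene was ± 0.217 on the log2 scale, and shifts larger than that could miss the adjusted threshold.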

Other observations

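Genes of the circadian clock and numbered zinc finger genes were gathered after their values had been seen, and are given as values only. Of 21 tested clock genes, 13 were called higher and 3 lower in the rescue than in the control libraries, with a median log2 fold change of 0.27. The counts were 15 and 2 with a median of 0.42 after the length and GC correction, and 9 and 2 with 0.14 after loess. The knockdown, against the same controls, gave 13 and 2. Besides Nr1d1 and Ciart, the period gene Per1 stood at 45.1 CPM in rescue, 34.9 CPM in knockdown and 26.2 CPM in control libraries (log2 fold change 0.78). Hlf, a PAR bZIP activator, Bhlhe41, a repressor, and Nfil3, which competes with the PAR bZIP factors, had 0.67, 0.76 and 0.68. Per3 went the other way, at -0.81.

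Of 315 tested genes named Zfp with a number, 23 were called higher and 160 lower, with a median of -0.39. The counts were 34 and 137 with a median of -0.27 after the length and GC correction, and 14 and 104 with -0.30 after loess. In the knockdown they were 22 and 135. Their median level was 11.1 CPM, in a table where falls were more frequent among genes of low level, and the part of that trend was not tested.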
